A study of Rattus norvegicus with 12 samples.

Results

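The Egr and Nr4a immediate-early factors described here are 10 genes: the zinc-finger factors Egr1, Egr2 and Egr3, the orphan nuclear receptors Nr4a1, Nr4a2 and Nr4a3, the Egr corepressors Nab1 and Nab2, and the induced nuclear proteins Ier2 and Csrnp1. They were found by symbol, as probe sets whose array annotation gives exactly 1 gene symbol and that symbol is among the 10. This gave 15 probe sets of the 31042 that are not controls, and 10 of the 14217 genes named on the array. A filter on mean brightness kept 12 of the 15, at least 1 for every gene. The 3 dim ones were further probe sets of Egr2, Nr4a2 and Nr4a3, and a gene is represented by its brightest probe set.

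Immediate-early genes are transcribed within minutes of a stimulus without new protein synthesis, because the factors that switch them on are already in the cell. ERK phosphorylates the Elk partners of serum response factor (SRF), which binds CArG boxes, and calcium or cyclic AMP activates CREB, which binds cyclic AMP response elements (CRE). Egr proteins then bind GC-rich DNA and induce Nab2, which in turn represses Egr activity, while Nr4a receptors need no known ligand and act largely through their amount. In vascular smooth muscle, Egr1 is known as a factor induced by injury and growth signals.

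The 12 samples were smooth muscle cells in primary culture, taken from the aorta of newborn rats and kept overnight without serum, in 6 groups of 2 arrays. Thrombin at 2 U/ml for 120 min was set against its own unstimulated cells, as was TRAP, a peptide that activates the thrombin receptor, at 25 µM for 120 min. The last experiment set TRAP at 25 µM for 120 min, given to cells kept for 24 h in 200 ng/ml of pertussis toxin (PTX), against unstimulated cells. Thrombin activates its receptors by cutting them, TRAP does so without cutting, and PTX uncouples receptors from Gi proteins. The question, by the design text, is how these stimuli act on transcription with and without Gi. The unstimulated cells of the PTX experiment are labelled as having no agent, so PTX itself and TRAP after PTX cannot be told apart there. The labels do not name separate cultures, so a p-value covers the spread between these arrays only, which may be technical.

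All values are array signals on a linear scale, and changes are differences of log2(signal + 16), which understates the change of dim genes. Signals of different genes cannot be ranked, since probe sets differ in brightness. All 11 smooth muscle markers passed the filter (Acta2 had a mean signal of 7221), against 1 of 6 endothelial and 2 of 6 leukocyte markers, with Pecam1 at 4.24 and Ptprc at 4.28. The summed signal of the endothelial markers was 42.6 to 119 over the arrays, that of the leukocyte markers 337.8 to 648.6 and that of the smooth muscle markers 19956 to 37979. Of the adventitial fibroblast markers 4 of 5 passed, with a summed signal of 4793 to 6764. Of the Schwann and neural markers 1 of 3 passed (195.9 to 347.9). The fibroblast marker Mfap5 was bright, at a mean of 5431, and the leukocyte marker Cd14 had 408. The smooth muscle markers Myh11 and Des were dim, at 50.7 and 28.85. Arrays of the thrombin experiment correlated with the others at r of 0.913 to 0.941, below the 0.972 to 0.991 within the TRAP experiments. The TRAP arrays also fall into 2 sets by the acute-phase gene Saa3, which cross the labels. Its signal was low, 15.9 to 22.8, on both unstimulated arrays of the TRAP experiment, on 1 array with TRAP (replicate 2) and on 1 with PTX and TRAP (replicate 1). It was high, 222.5 to 420.9, on both unstimulated arrays of the PTX experiment and on the remaining array of each stimulated group. These sets are not groups of the study. Whether labels of arrays were exchanged was not tested, and every array is named as labelled. The results of Nr4a1 and Nr4a3, which moved most with these sets, are also given without the 2 mismatched arrays, those stimulated arrays whose Saa3 set is not that of their controls (replicate 1 of TRAP and replicate 1 of TRAP with PTX).

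Of the 10 genes, 6 rose after each stimulus and none fell. Egr1, Egr2, Nr4a1 and Ier2 rose after all 3 stimuli. Nr4a3 and Csrnp1 also rose after thrombin, Nab2 and Csrnp1 after TRAP, and Nr4a3 and Nab2 after TRAP with PTX. Egr3, Nr4a2 and Nab1 passed the test after no stimulus. By limma, with p-values adjusted over 18625 probe sets, 2.63% of all probe sets rose after thrombin, 1.84% after TRAP and 1.68% after TRAP with PTX, and 2.10%, 2.07% and 1.03% fell. Both stimulated arrays lay above both basal arrays for 6, 9 and 8 of the 10 genes, where 18.8%, 19.2% and 18.1% of all probe sets did. None of the genes fell at an unadjusted p under 0.05 either, and 6, 7 and 7 rose at that level. The median change of the 10 genes was 1.43 after thrombin, 0.80 after TRAP and 1.04 after TRAP with PTX, where the median of all tested probe sets was -0.04 in each. The 6 genes called after TRAP were 3 without basal TRAP replicate 1 and 3 without TRAP replicate 2, and the 6 called after TRAP with PTX were 3 without basal replicate 2 of that experiment. With each array centred on its median, 67.3% of all calls after TRAP were rises instead of 47.0%, and 81.6% instead of 62.0% after TRAP with PTX, while in thrombin minus TRAP 46.6% of calls were positive instead of 60.6%, and in thrombin minus TRAP after PTX 40.5% instead of 61.1%.

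**Figure D1:**
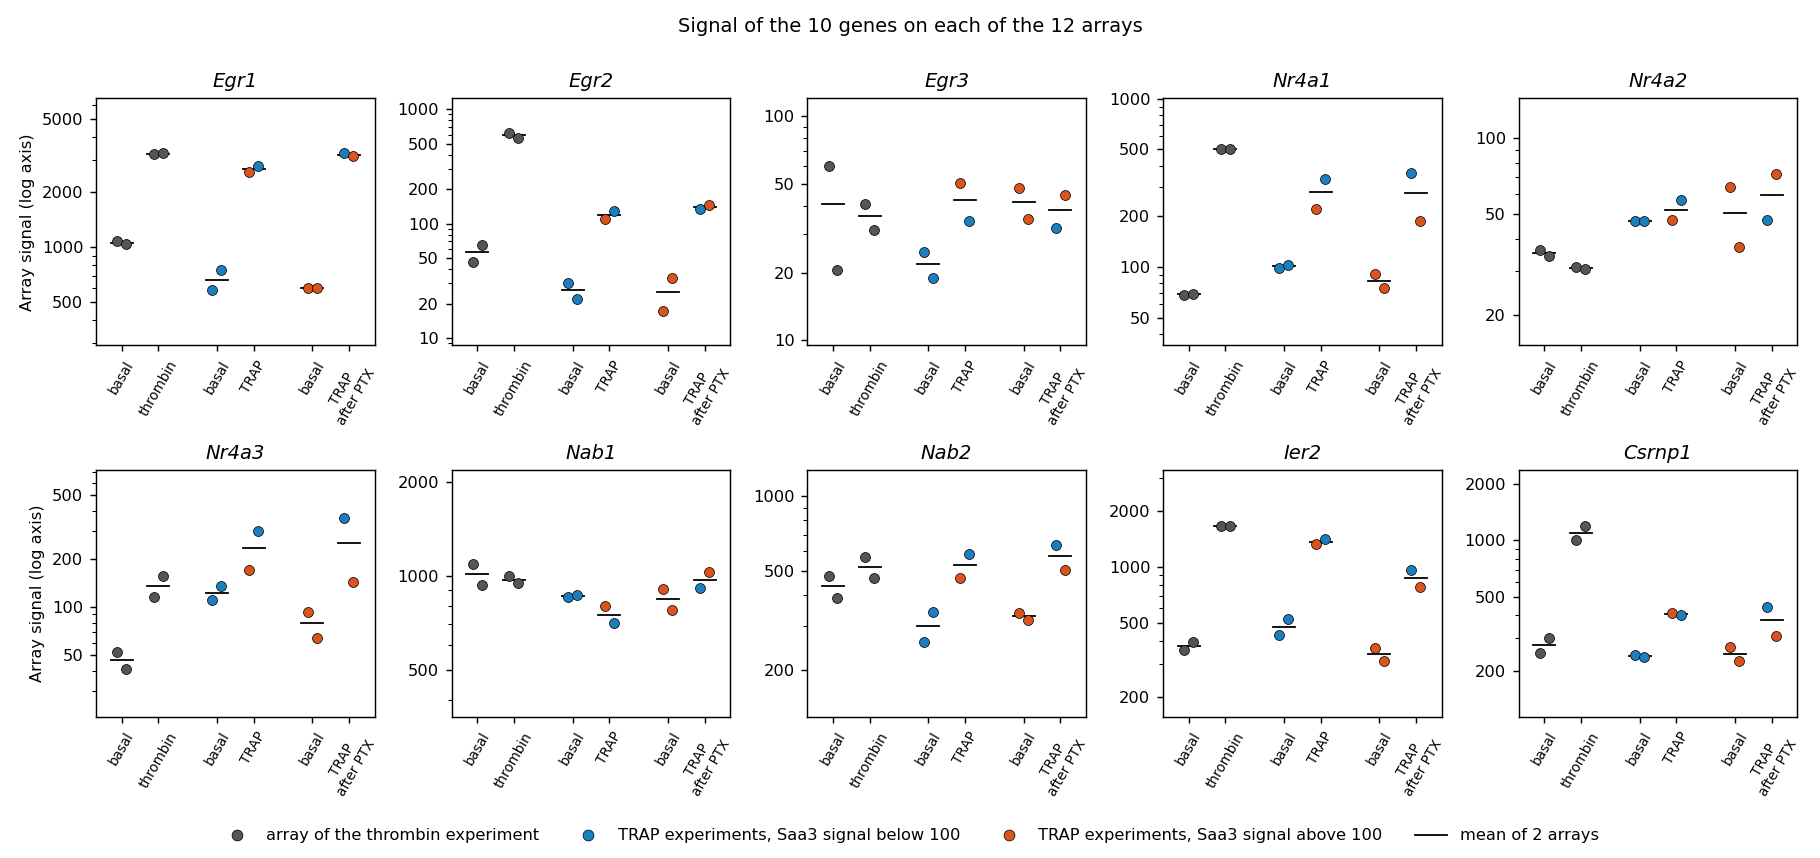
Array signal (log axis) of the brightest probe set of each of the 10 genes on the 12 arrays, by group, with a bar at the mean of 2 arrays and colours for the thrombin experiment and the 2 sets of TRAP arrays split by Saa3. Egr1, Egr2, Nr4a1 and Ier2 lie above their own basal arrays after every stimulus, while Egr3 and Nr4a2 spread between 19.0 and 71.9 with no such shift.

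Egr1 encodes the best studied of the Egr factors, a zinc-finger activator of growth factor and matrix genes. Its signal was 1076.2 and 1041.1 on the basal arrays of the thrombin experiment and 3223.4 and 3259.5 after thrombin. It was 582.0 and 749.9 before TRAP and 2570.7 and 2793.3 after it. Before TRAP with PTX it was 598.6 and 601.7, and after it 3261.3 and 3139.8. No stimulated array came near a basal one, and the stimulated groups of thrombin and TRAP after PTX overlapped although their basal groups did not. The log2 changes were 1.60 ± 0.11 (SE) with thrombin, 1.99 ± 0.11 with TRAP and 2.38 ± 0.11 with TRAP after PTX (adjusted p = 1.35e-06, 5.14e-07 and 9.92e-08). These are 3.03-fold, 3.98-fold and 5.22-fold on the log2(signal + 16) scale, and in the last response it ranked 6 of 18625 probe sets by size of rise.

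Egr2 encodes a related zinc-finger factor, best known from myelinating Schwann cells. It was dim in unstimulated cells, at 46.6 and 65.6 in the thrombin experiment, 30.4 and 21.7 before TRAP and 17.2 and 33.4 before TRAP with PTX. Thrombin raised it to 624.6 and 563.9, TRAP to 110.2 and 129.6 and TRAP after PTX to 134.3 and 144.1. Both thrombin arrays stood far above the others, of which the highest was 144.1. The log2 changes were 3.09 ± 0.20 (SE), 1.70 ± 0.20 and 1.94 ± 0.20 (adjusted p = 1.19e-06, 0.000356 and 0.00015), and 8.53-fold with thrombin. The dimmer Egr2 probe set, below the filter and not tested, read 79.7 and 62.2 after thrombin and 1.3 to 18.1 on the other 10 arrays.

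Egr3, another member of the family, gave a faint signal of 19.0 to 60.3 over all arrays. Its 2 basal arrays in the thrombin experiment read 60.3 and 20.7, farther apart than any group means. The changes were -0.04 ± 0.30 (SE, log2) with thrombin, 0.61 ± 0.30 with TRAP and -0.08 ± 0.30 with TRAP after PTX, with adjusted p of 0.969, 0.348 and 0.925. The 95% interval after TRAP ran from -0.05 to 1.26.

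The windows upstream of Egr2, Nr4a1 and Ier2 are shown because these genes rose after every stimulus, and that of Nab1, which passed the test after none, for contrast. The window of Egr1 is described by its matches and not printed. RefSeq promoter windows (build GRCr8, 250 bases before to 50 after the start site) were at hand for 7 of the 10 genes, and those of Egr3, Nr4a3 and Csrnp1 were not used here. Capitals mark CArG boxes, the CRE core TGACG on either strand (CGTCA on the other), and the Egr site GCGNGGGCG on either strand. The windows are printed 5′ to 3′ in the direction of the gene.
Egr2, chr20:21054392-21054691, minus strand: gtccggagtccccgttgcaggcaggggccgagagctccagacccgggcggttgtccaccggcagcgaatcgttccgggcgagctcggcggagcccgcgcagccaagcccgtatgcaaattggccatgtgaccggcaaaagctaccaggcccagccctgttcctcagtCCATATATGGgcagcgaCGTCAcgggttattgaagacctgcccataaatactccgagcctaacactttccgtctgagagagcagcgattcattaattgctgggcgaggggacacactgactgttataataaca
Nr4a1, chr7:134259888-134260187, plus strand: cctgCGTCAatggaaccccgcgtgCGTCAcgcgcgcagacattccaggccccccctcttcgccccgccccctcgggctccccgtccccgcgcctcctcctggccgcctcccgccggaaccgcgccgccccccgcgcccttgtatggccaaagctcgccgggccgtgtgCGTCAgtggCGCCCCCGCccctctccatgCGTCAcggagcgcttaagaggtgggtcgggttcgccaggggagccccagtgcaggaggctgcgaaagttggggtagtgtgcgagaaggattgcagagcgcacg
Ier2, chr19:40399123-40399422, plus strand: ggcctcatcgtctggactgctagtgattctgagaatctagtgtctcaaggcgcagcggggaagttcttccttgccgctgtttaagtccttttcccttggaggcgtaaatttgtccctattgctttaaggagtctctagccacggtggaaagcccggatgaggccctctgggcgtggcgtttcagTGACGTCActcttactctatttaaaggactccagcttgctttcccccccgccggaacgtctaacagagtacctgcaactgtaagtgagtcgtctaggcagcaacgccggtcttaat
Nab1, chr9:56545392-56545691, plus strand: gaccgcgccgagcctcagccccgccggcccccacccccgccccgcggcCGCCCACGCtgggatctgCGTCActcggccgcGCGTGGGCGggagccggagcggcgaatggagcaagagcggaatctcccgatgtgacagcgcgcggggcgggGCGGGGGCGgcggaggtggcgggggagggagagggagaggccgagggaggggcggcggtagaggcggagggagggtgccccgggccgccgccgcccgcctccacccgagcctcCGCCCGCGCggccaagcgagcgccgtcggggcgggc

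A CArG box stood in 1.64% of all 33469 windows, and in those of Egr1 and Egr2 among the 7. Egr2 has it at positions -83 to -74 from the start, as ccatatatgg, and Egr1 has the same 10 letters at the same positions and another, ccatattagg, at -105 to -96. The CRE core stood in 21.2% of all windows and in 6 of the 7. Among these, the Nr4a2 window (chr3:62104838-62105137, minus strand) lies inside its annotated locus, chr3:62098739-62115926. The Nr4a1 window likewise lies inside its locus, chr7:134247153-134268044, and the Egr2 window inside its own, chr20:21050149-21055201. The Nab2 window (chr7:65389206-65389505, minus strand), which holds no CRE core, also lies inside its locus, chr7:65382863-65389527. Whether these cells use those start sites was not tested. The CRE core lies at -66 to -62 in both Egr1 and Egr2, and Egr1 has another at -135 to -131. The Nr4a1 window holds 4 cores, all within the longer word TGACGCA, which 1.90% of all windows hold. Ier2 has the full palindromic CRE TGACGTCA (1.83% of windows) at -66 to -59, which counts as a core on each strand. The Egr site was in 4.98% of windows and in those of Nr4a1, once, and Nab1, at 4 places. The Nr4a response element AAAGGTCA (1.43% of windows) and TATAAA (14.2%) matched in none of the 7, and Nab2 matched none of the motifs searched. A match describes the letters in the window and is no evidence that a factor was bound.

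**Figure D2:**
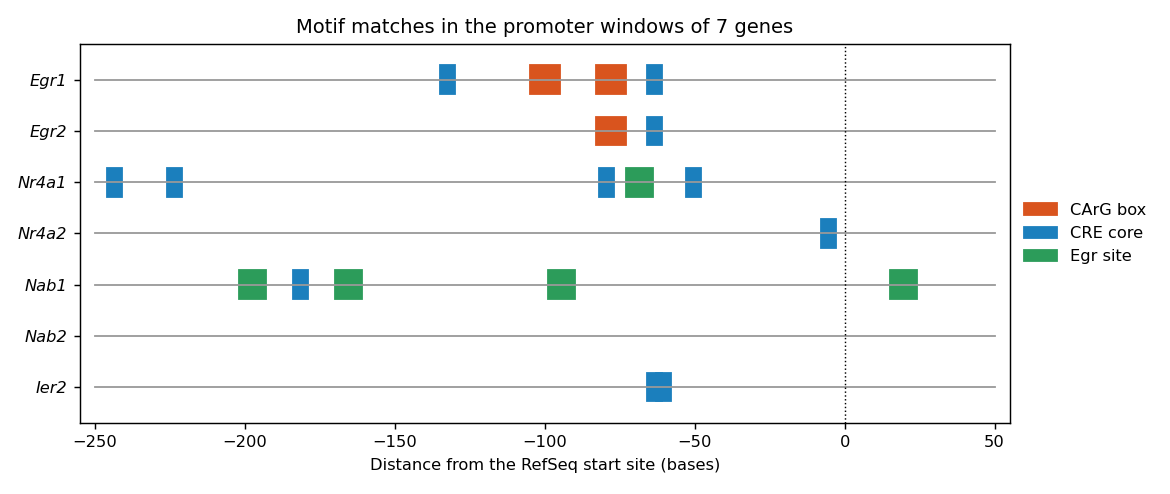
Matches of the CArG box, the CRE core TGACG and the Egr site GCGNGGGCG in the RefSeq promoter windows of 7 genes, by distance in bases from the start site (dotted line). Egr1 and Egr2 have a CArG box at -83 to -74 and a CRE core at -66 to -62.

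Nr4a1 (Nur77) is an orphan nuclear receptor that restrains smooth muscle growth and inflammation in vessel models. Its signal was 68.5 and 69.7 before thrombin and 503.9 and 504.3 after it, 99.3 and 103.3 before TRAP and 222.0 and 335.6 after it, and 91.0 and 75.1 before TRAP with PTX and 363.5 and 187.3 after it. All stimulated arrays were above all basal arrays, and the thrombin replicates were nearly equal where those of the TRAP groups were not. The log2 changes were 2.61 ± 0.24 (SE) with thrombin (adjusted p = 2.6e-05), 1.30 ± 0.24 with TRAP (adjusted p = 0.00725) and 1.49 ± 0.24 with TRAP after PTX (adjusted p = 0.00417). Without basal TRAP replicate 1, basal TRAP replicate 2 or TRAP replicate 2 the TRAP call was lost (adjusted p = 0.0754, 0.0562 and 0.0802, at changes of 1.28, 1.33 and 1.02). Without basal replicate 2 of the PTX experiment the call there was lost (adjusted p = 0.0546, at 1.38).

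Nr4a3 (Nor1), a close relative with a growth-promoting role in smooth muscle, was less certain. It read 52.0 and 41.0 before thrombin and 115.6 and 155.2 after it. Around TRAP it read 110.1 and 135.4 before and 171.3 and 299.6 after, and around TRAP with PTX 93.7 and 64.1 before and 360.2 and 144.3 after. Stimulated arrays lay above their own basal arrays each time, but the level after thrombin overlapped that of unstimulated TRAP cells. The log2 changes were 1.27 ± 0.33 (SE) with thrombin (adjusted p = 0.0451), 0.82 ± 0.33 with TRAP (adjusted p = 0.23) and 1.39 ± 0.33 with TRAP after PTX (adjusted p = 0.0428). The thrombin call was lost in 8 of 12 fits that leave out an array, namely each array of the thrombin experiment and each basal array of the others (adjusted p from 0.0535 to 0.272). The call after TRAP with PTX was lost in 9 of 12, namely those same 8 and TRAP after PTX replicate 1, without which the change was 0.77 (adjusted p = 0.286). A further Nr4a3 probe set gave 1.24 ± 0.25 with thrombin (adjusted p = 0.0117), 0.78 ± 0.25 with TRAP (adjusted p = 0.119) and 0.83 ± 0.25 with TRAP after PTX (adjusted p = 0.104). The probe set that was too dim to test read 2.9 and 3.4 before thrombin and 22.1 and 29.6 after it.

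Nr4a2 (Nurr1), the member best known from dopamine neurons, stayed faint at 30.4 to 71.9. Its changes were -0.13 ± 0.23 (SE, log2), 0.10 ± 0.23 and 0.19 ± 0.23 with thrombin, TRAP and TRAP after PTX (adjusted p = 0.83, 0.887 and 0.712). The 95% intervals reached up to 0.36, 0.59 and 0.68. Its dimmer probe set read 3.2 to 24.9.

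Nr4a1 and Nr4a3 moved with the 2 sets of TRAP arrays. In both stimulated groups the array with low Saa3 was the higher one: Nr4a1 was at 335.6 against 222.0 after TRAP and at 363.5 against 187.3 after TRAP with PTX. For Nr4a3 the pairs were 299.6 against 171.3 and 360.2 against 144.3. With the sets as a term in the model, arrays with high Saa3 were lower by a log2 difference of -0.73 ± 0.13 (SE) for Nr4a1 and -0.99 ± 0.20 for Nr4a3. The same term was -0.09 ± 0.11 for Egr1, -0.06 ± 0.21 for Egr2 and -0.19 ± 0.12 for Ier2. It was -0.32 ± 0.14 for Nab2, -0.23 ± 0.14 for Csrnp1 and 0.37 ± 0.30 for Egr3. For Nab1 it was 0.17 ± 0.10 and for Nr4a2 0.14 ± 0.23. The sets were read from these same arrays, so no p is given, and their part in the responses was not tested. Without the 2 mismatched arrays, Nr4a1 rose by 1.58 with TRAP (adjusted p = 0.000241) and by 1.04 with TRAP after PTX (adjusted p = 0.00796), so that the order of these values turned. Nr4a3 then rose by 1.19 with TRAP (adjusted p = 0.0242) and measured 0.77 with TRAP after PTX (adjusted p = 0.192). With the sets as a block the values of Nr4a3 were 1.31 (adjusted p = 0.00413) and 0.89 (adjusted p = 0.0562).

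Nab2, the corepressor that Egr proteins induce and that limits them, read 477.5 and 389.8 before thrombin and 568.8 and 468.7 after it, so these arrays overlapped. TRAP took it from 257.9 and 343.0 to 470.0 and 587.8, and TRAP after PTX from 340.5 and 317.8 to 640.0 and 506.0, with no overlap. The log2 change was 0.25 ± 0.16 (SE) with thrombin (adjusted p = 0.478), 0.79 ± 0.16 with TRAP (adjusted p = 0.0156) and 0.76 ± 0.16 with TRAP after PTX (adjusted p = 0.027). The TRAP call was lost without basal TRAP replicate 1 (0.59, adjusted p = 0.203) or TRAP replicate 2 (0.63, adjusted p = 0.14). The call with PTX was lost without basal replicate 1 (0.81, adjusted p = 0.0761), basal replicate 2 (0.71, adjusted p = 0.155) or stimulated replicate 1 (0.60, adjusted p = 0.2), and at 0.60 with the Saa3 sets as a block (adjusted p = 0.0744). The level after thrombin overlapped those after TRAP and after TRAP with PTX. The basal level was not called different among experiments (adjusted p = 0.0502).

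Nab1, the related corepressor that is present in resting cells, was bright and steady at 704.4 to 1093.2. Its changes were -0.05 ± 0.11 (SE, log2) with thrombin, -0.19 ± 0.11 with TRAP and 0.20 ± 0.11 with TRAP after PTX, with adjusted p of 0.866, 0.434 and 0.398. A further probe set gave -0.02, -0.07 and 0.10. The 95% intervals of the brighter probe set reached up to 0.19, 0.05 and 0.44.

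Ier2, a small nuclear protein induced by growth factors, read 358.6 and 396.6 before thrombin and 1649.4 and 1661.7 after it. It went from 429.4 and 524.9 to 1324.4 and 1411.1 with TRAP, and from 367.0 and 311.7 to 964.7 and 783.0 with TRAP after PTX. The 3 stimulated groups did not overlap one another, and thrombin was the highest. The log2 changes were 2.09 ± 0.13 (SE), 1.49 ± 0.13 and 1.32 ± 0.13 (adjusted p = 5.34e-07, 1.65e-05 and 7.47e-05). The rises of Egr1, Egr2 and Ier2 passed the test in each of the 25 alternatives run per response, the largest adjusted p being 0.00859.

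Csrnp1, a nuclear protein first described as induced by Axin, was called after thrombin and TRAP. Thrombin took it from 250.9 and 303.1 to 1010.9 and 1191.0. TRAP took it from 245.9 and 237.7 to 409.2 and 401.7, and TRAP with PTX from 269.2 and 228.3 to 440.4 and 310.4. Both thrombin arrays stood far above the others, of which the highest was 440.4. The log2 changes were 1.93 ± 0.15 (SE, adjusted p = 7.57e-06), 0.71 ± 0.15 (adjusted p = 0.0186) and 0.55 ± 0.15 (adjusted p = 0.0783). Leaving out any 1 of the 4 arrays of the TRAP experiment ended the TRAP call (adjusted p from 0.0847 to 0.134). Without TRAP after PTX replicate 2 the change with PTX was 0.79 and passed (adjusted p = 0.0233).

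**Figure D3:**
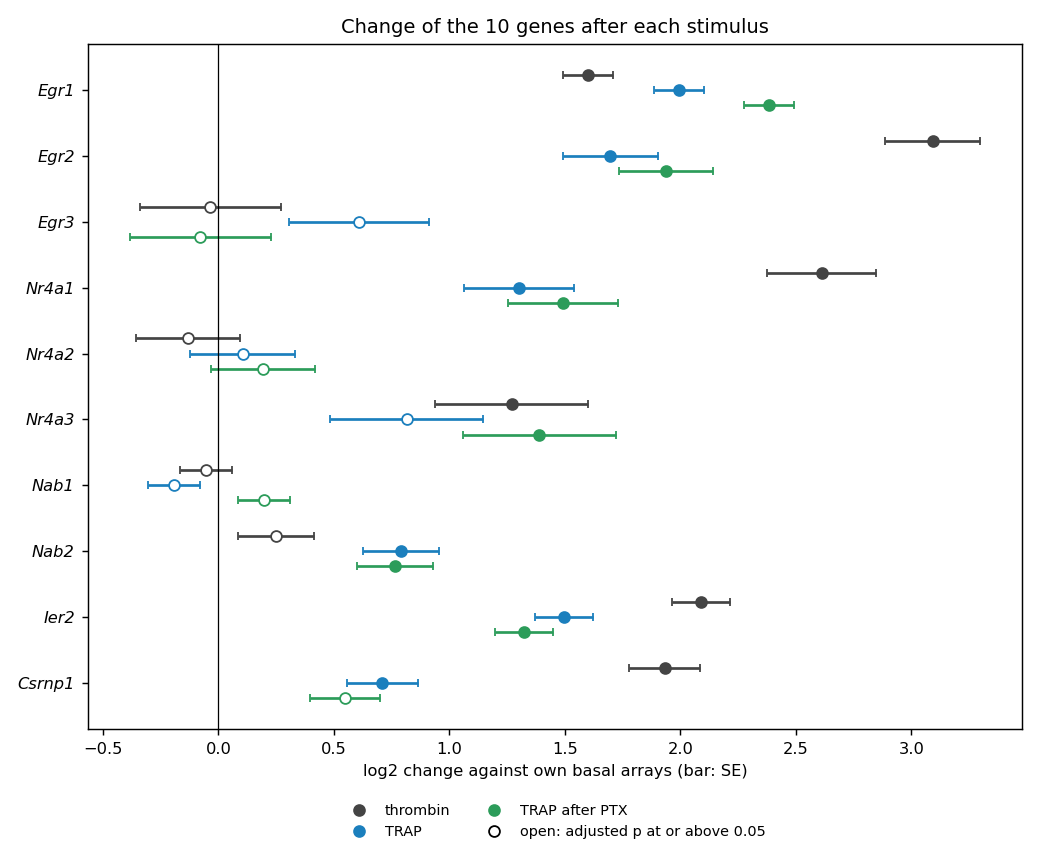
Log2 change of the 10 genes against their own basal arrays after thrombin, TRAP and TRAP after PTX, with bars for the SE and open points where the adjusted p is at or above 0.05. Egr2 with thrombin (3.09) is the highest point, and Egr3, Nr4a2 and Nab1 have open points throughout.

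The responses were then compared with each other. Thrombin and TRAP are given in different units, so whether they were matched in strength cannot be read from the doses. The differences are of these doses only. Each response also comes from its own experiment, and 42.2% of all probe sets differed among the basal groups by the F test. Stimulus and experiment, with its starting cells, therefore cannot be told apart in these differences. Csrnp1 rose more with thrombin than with TRAP, by a log2 difference of 1.22 ± 0.22 (SE, adjusted p = 0.0226), and than with TRAP after PTX, by 1.38 ± 0.22 (adjusted p = 0.0124). It was the only 1 of the 10 genes called in the first of these comparisons, where 0.532% of all probe sets were called, and 1 of 2 in the second, where 0.483% were. The first call was lost in 7 of 12 fits that leave out an array, namely basal thrombin replicate 1, both thrombin arrays and the 4 arrays of the TRAP experiment (adjusted p from 0.0589 to 0.122). The second was lost without basal thrombin replicate 1, thrombin replicate 2 or basal replicate 1 of the PTX experiment (adjusted p = 0.058, 0.0799 and 0.0537).

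Egr1 went the other way. Its rise was smaller with thrombin than with TRAP after PTX, by a log2 difference of -0.78 ± 0.15 (SE, adjusted p = 0.0388). This call was lost in 15 of 24 alternatives, among them 7 of the fits without 1 array, that is each array of both experiments except basal thrombin replicate 2 (adjusted p from 0.101 to 0.157). The stimulated levels of the 2 groups, with means of 3241 and 3201, overlapped, and the basal levels, with means of 1059 and 600, did not. Egr2 differed by 1.40 ± 0.29 between thrombin and TRAP (adjusted p = 0.0535), which passed in 9 of 24 alternatives, and by 1.15 ± 0.29 between thrombin and TRAP after PTX (adjusted p = 0.137). For Nr4a1 the same differences were 1.31 ± 0.34 (adjusted p = 0.129) and 1.12 ± 0.34 (adjusted p = 0.234), and with the Saa3 sets as a block 0.94 (adjusted p = 0.0484) and 1.49 (adjusted p = 0.00226). Ier2 differed by 0.59 ± 0.18 and 0.77 ± 0.18 (adjusted p = 0.205 and 0.104). These 3 genes missed the threshold, and the intervals of the differences between thrombin and TRAP ran up to 2.02 for Egr2, 2.03 for Nr4a1 and 0.98 for Ier2.

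No gene was called between TRAP after PTX and TRAP, where 0.129% of all probe sets were. At an unadjusted p under 0.05 there were 2, Egr1 (0.39 ± 0.15, adjusted p = 0.493) and Nab1 (0.39 ± 0.16, adjusted p = 0.516), both higher with PTX. For Egr2 the difference was 0.24 ± 0.29, for Nr4a1 0.19 ± 0.34, for Nab2 -0.03 ± 0.23, for Csrnp1 -0.16 ± 0.22 and for Ier2 -0.17 ± 0.18. The 95% intervals ran from -0.56 to 0.21 for Ier2 and from -0.53 to 0.91 for Nr4a1. Nr4a3 differed by 0.57 ± 0.47 (adjusted p = 0.821). Without the 2 arrays mismatched by Saa3 both differences had the other sign, at -0.54 for Nr4a1 (adjusted p = 0.67) and -0.42 for Nr4a3 (adjusted p = 0.942).

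**Figure D4:**
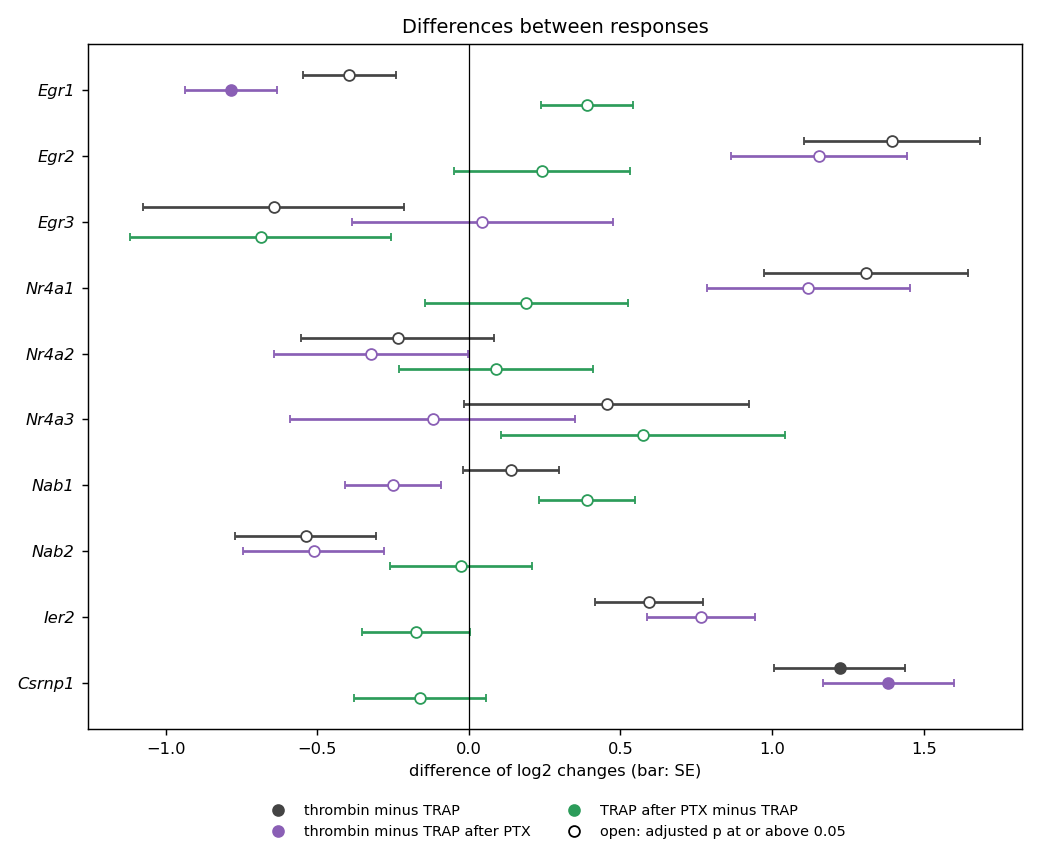
Differences of log2 changes between responses for the 10 genes, with bars for the SE and open points where the adjusted p is at or above 0.05. Filled points are Csrnp1 for thrombin minus TRAP (1.22) and minus TRAP after PTX (1.38), and Egr1 for thrombin minus TRAP after PTX (-0.78).

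The starting levels of some of these genes differed between experiments. Among the basal groups an F test called 4 of the 10 genes, at a background of 42.2% of all probe sets. Egr1 (adjusted p = 9.65e-05) and Egr2 (adjusted p = 0.0078) were higher on the basal arrays of the thrombin experiment, by log2 differences of -0.67 and -0.77 for basal TRAP against basal thrombin. Nr4a3 (adjusted p = 0.0354) was lower there, by 1.15 for the same difference. Ier2 (adjusted p = 0.0211) was highest in the basal TRAP group. A share of 4 in 10 is close to the background, so the genes did not stand out in this respect.

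Ordered by mean signal, the 3 stimulated groups lay above the 3 basal groups for Egr1, Egr2, Nr4a1, Nr4a3, Nab2, Ier2 and Csrnp1. Thrombin came first for Egr1, Egr2, Nr4a1, Ier2 and Csrnp1, while TRAP after PTX came first for Nr4a3 and Nab2. Egr1 after thrombin and after TRAP with PTX overlapped, as did Nr4a1 and Nab2 after TRAP and after TRAP with PTX, so these neighbours had no order. Nr4a3 after TRAP also lay within its range after TRAP with PTX, and its further probe set had TRAP first, at means of 121.2 and 113.8. Csrnp1 after TRAP (401.7 to 409.2) also lay within the range after TRAP with PTX (310.4 to 440.4). For Egr3 and Nr4a2 all neighbours overlapped or lay within the spread of their arrays, apart from low values of Egr3 before TRAP and of Nr4a2 in the thrombin experiment.

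The genes whose pattern was most like each of these were sought by Pearson's r over the 12 arrays, after subtracting from each array the mean of its own basal group. Such r are descriptive, since all arrays share the step from basal to stimulated. Egr1 was closest to Tnfrsf12a, a receptor of the TNF family (r = 0.991), which measured 0.73, 0.84 and 0.92 (log2) with thrombin, TRAP and TRAP after PTX. Egr2 was close to Zfp36, which promotes mRNA decay (r = 0.982), and Nr4a1 to the heat shock gene Hspa1a (r = 0.994) and the factor gene Nfil3 (r = 0.986). Ier2 went with the growth factor gene Hbegf (r = 0.99), and Plaur, the urokinase receptor (r = 0.988). Csrnp1 went with the sphingosine kinase gene Sphk1 (r = 0.987) and the synaptic gene Arc (r = 0.986), which both rose by 2.74 with thrombin and measured 0.95 and 0.97 with TRAP (log2). Nab2 was closest to Zfand5 (r = 0.975). Nr4a3 was closest to Sf3b3 (r = 0.98), whose changes were 0.14, 0.06 and 0.14. Within the family Nr4a1 and Ier2 correlated at 0.97, Egr2 and Ier2 at 0.966, Egr1 and Nab2 at 0.882 and Egr1 and Csrnp1 at 0.612.

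Other genes of the pathway were taken from 4 lists of related genes. The list of 18 tested regulators of Egr and Nr4a genes also holds the deacetylases Hdac4, Hdac5 and Hdac7, so it is not of activators alone. Among these 18, 1 rose after thrombin, 2 after TRAP and none after TRAP with PTX, and none fell. At an unadjusted p under 0.05, 4 rose and none fell in the last response. Srf, the factor that binds CArG boxes, rose by 1.28 ± 0.11 (SE, log2) with thrombin (adjusted p = 1.35e-05) and by 0.54 ± 0.11 with TRAP (adjusted p = 0.0122). It measured 0.19 with TRAP after PTX (adjusted p = 0.387), which differed from TRAP by -0.35 ± 0.15 (adjusted p = 0.573). Elk4, an SRF partner, rose with TRAP by 0.40 (adjusted p = 0.0474). Mef2a, Elk3, Crem and Atf1 passed in no response, with changes between 0.07 and 0.44. The list medians were 0.16, 0.11 and 0.10, against -0.04 for all probe sets.

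Other immediate-early genes rose in 14 of 27 after thrombin, 8 after TRAP and 6 after TRAP with PTX, and none fell. At an unadjusted p under 0.05, 1, 3 and 3 fell. Fosl1 and Junb, parts of AP-1, rose with all stimuli (3.78, 3.49 and 3.17 for Fosl1, and 1.80, 1.48 and 1.24 for Junb), as did Zfp36 (1.77, 1.04 and 0.95) and Maff, a small Maf factor (0.92, 1.29 and 1.28). Arc rose with thrombin by 2.74 and with TRAP by 0.97, and measured 0.72 with TRAP after PTX (adjusted p = 0.112). The latter differed from TRAP by -0.25 ± 0.31 (adjusted p = 0.898). Plk2 rose with thrombin by 0.85 and missed the threshold with TRAP (0.402, adjusted p = 0.0537). The medians were 0.85, 0.38 and 0.35. By the test of the difference, the change with thrombin exceeded that with TRAP in 5 of these 27 genes. These were Zfp36, Arc, Klf6, Myc and Gem, where 0.322% of all probe sets were called in that direction. Klf6 read 245.4 and 296.9 before thrombin and 930.3 and 843.3 before TRAP, and overlapped after them (932.2 and 1005.3, 885.3 and 1070.4). Myc read 109.3 and 139.1 before thrombin and 716.7 and 728.5 before TRAP. It was lower after thrombin (283.1 and 274.3) than after TRAP (562.8 and 567.9). Gem was also lower before thrombin (14.5 and 25.0, against 69.9 and 73.6). After thrombin Zfp36, Arc and Gem read higher than after TRAP.

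Of 13 tested genes reported elsewhere as Egr1 targets, 4 rose after thrombin, 2 after TRAP and none after TRAP with PTX. None fell in any response, and at an unadjusted p under 0.05 3 rose and 2 fell after TRAP with PTX. None of the 13 was called between TRAP after PTX and TRAP. Tissue factor, F3, rose by 1.25 ± 0.13 (SE, log2) with thrombin and 1.23 ± 0.13 with TRAP, and measured 0.48 with TRAP after PTX (adjusted p = 0.0717). The latter differed from TRAP by -0.75 ± 0.18 (adjusted p = 0.182). F3 read 2200.0 and 2332.8 before TRAP and 4021.6 and 3446.7 before TRAP with PTX. The stimulated arrays overlapped, at 5534.1 and 5111.8 against 4871.3 and 5519.7. Sphk1 rose with thrombin by 2.74 and measured 0.95 with TRAP (adjusted p = 0.0548) and 0.86 with TRAP after PTX (adjusted p = 0.0961). Icam1, an adhesion molecule, rose with TRAP by 0.84 and measured 0.17 with TRAP after PTX (adjusted p = 0.533). These 2 values differed by -0.67 ± 0.18 (adjusted p = 0.222). With thrombin, Cd44, a hyaluronan receptor, rose by 0.45 and the growth factor gene Vegfa by 0.65. Tgfb1 and Fgf2 passed in no response. The medians of the list were 0.27, 0.12 and 0.15.

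Among 7 tested partners and reported targets of the Nr4a receptors, 1 gene fell after thrombin, the cell cycle inhibitor Cdkn1b (-0.73 ± 0.12, SE, log2; adjusted p = 0.00351), and none rose after any stimulus or fell after the other stimuli. At an unadjusted p under 0.05, 1 rose and 2 fell after TRAP. Ncor1, Vcam1, Birc3, Rxrb and E2f1 passed in no response, and the medians were -0.09, -0.18 and -0.04.

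**Figure D5:**
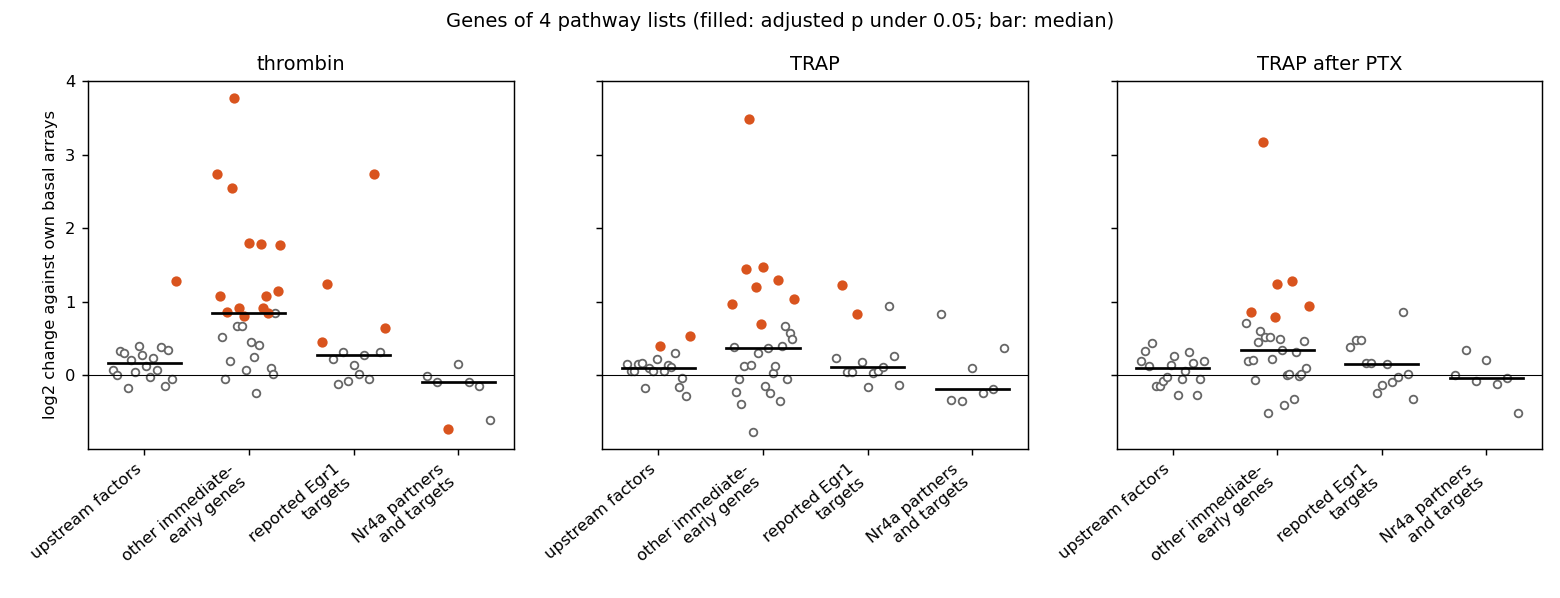
Log2 change against the own basal arrays of each tested gene in 4 pathway lists after thrombin, TRAP and TRAP after PTX, filled where the adjusted p is under 0.05, with a bar at the list median. Other immediate-early genes have medians of 0.85, 0.38 and 0.35, and the Nr4a partners and targets hold 1 filled point, Cdkn1b at -0.73.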

How the data were processed

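RNA of 12 samples was hybridised to 1-colour Affymetrix arrays. The deposited table holds intensity, not log-transformed, from the GCOS 1.4 software named in the submitters' processing notes. On every array the mean without the lowest and highest 2% is near 200. Genome build and detection calls are not given in the sources used here.

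Signals were taken as log2(signal + 16), without the 57 control probe sets. Those in the upper part by mean log2 signal (past the 40th percentile, 18625 in number) were fitted in 1 model of 6 groups (limma 3.58.1 in R 4.3.3, lmFit and eBayes with an intensity trend, 6 residual degrees of freedom), with 2-sided tests, Benjamini-Hochberg adjustment over all of them and a threshold of 0.05. The fit was tested on simulated data. Array annotation gave 1 symbol for 20826 probe sets, several for 436 and none for 9780, and 20758 symbols matched current Entrez numbers with 0 changed. The number of arrays, 2 a group, limits the precision.

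The 10 genes, the pathway lists and the alternatives were chosen with earlier results of these data known, so no list is independent evidence of its direction. Named genes are the 10, in each pathway list the 6 of smallest p when the 3 responses are averaged, and the 3 most alike per gene. Vegfa, Klf6, Myc, Gem and Dusp5 were named after their values were seen. The alternatives changed the pseudocount, the filter or the scaling, or used no trend, array weights, a replicate block, other control or array choices, the 2 Saa3 sets, and each array left out. An array left alone in its group is assumed to vary like the others.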

Additional observations from a re-analysis of the deposited data

Results flagged for a closer look

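The test of the difference between 2 responses singled out 3 values. Csrnp1 rose more with thrombin than with TRAP (log2 difference of 1.22, adjusted p = 0.0226) and than with TRAP after PTX (1.38, adjusted p = 0.0124). Egr1 rose less with thrombin than with TRAP after PTX (-0.78, adjusted p = 0.0388). Both thrombin arrays of Csrnp1 lay above all other arrays, and for Egr1 the stimulated levels of the 2 groups overlapped while the basal levels did not. Groups of 2 arrays are too small for a test of outlying arrays.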

How the results depend on the processing

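The 9 rises of Egr1, Egr2 and Ier2 kept their call under all 25 alternatives, as did those of Nr4a1 and Csrnp1 with thrombin. No called value had the other sign under any alternative. Among results that missed the threshold, 13 in 8 genes had the other sign under some alternative, 46 values in all. Leaving out each array in turn, the number of the 10 genes called was 5 to 6 with thrombin, 3 to 6 with TRAP, 3 to 7 with TRAP after PTX, 3 to 5 among basal groups, 0 to 2 in thrombin minus TRAP, 0 to 2 in thrombin minus TRAP after PTX, and 0 in TRAP after PTX minus TRAP. Among basal groups it was 2 instead of 4 without the intensity trend. There it was 3 with a pseudocount of 64, no filter or quantile normalization, and 5 with median centring or the Saa3 block. In thrombin minus TRAP it was 2 instead of 1 with a pseudocount of 64, the filter at the 60th percentile, quantile normalization, array weights or the Saa3 block, 3 in a fit of the compared groups alone and 0 without the trend. In thrombin minus TRAP after PTX it was 1 instead of 2 with no filter, median centring, quantile normalization, array weights or the replicate block, and 0 without the trend. It was 3 there with a pseudocount of 64 or the Saa3 block. With TRAP it was 4 instead of 6 without the trend, and 7 with all 6 basal arrays as control or the Saa3 block. With TRAP after PTX it was 4 instead of 6 without the trend, with array weights or with the Saa3 block. It was 5 there with no filter, the replicate block or the compared groups alone, and 7 with all 6 basal arrays. The cause was not tested.

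Same-numbered basal and stimulated arrays deviated from their group means with correlations of 0.134, 0.104 and 0.022 in the 3 experiments, so the numbers were not taken as pairs. With the replicate block Nr4a3 lost its calls with thrombin (adjusted p = 0.0631) and with TRAP after PTX (adjusted p = 0.0614), and Egr1 lost its difference between these stimuli (adjusted p = 0.0623). Differences have no value with all 6 basal arrays as the control, Egr3 and Nr4a2 have none under the stricter filter, and the basal F test was not run with other control or array choices. Median centring moved the median of all probe sets by 0.10 with TRAP after PTX and by 0.09 with TRAP. Csrnp1 lost its difference from TRAP under it (1.14, adjusted p = 0.0551).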

Other observations

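The CArG box and the CRE core of Egr1 and Egr2 stand in one arrangement: a CArG box, 7 bases, then CGTCA. This was searched for in all promoter windows after it was seen in those of Egr1 and Egr2. Of 33469 windows 91 hold both motifs at any distance, and 4 hold this arrangement on either strand, those of Egr1, Egr2, Dusp5 and LOC134485250. The window of LOC134485250 overlaps that of Dusp5 on the opposite strand, so the 2 are not separate cases. Dusp5, a phosphatase that inactivates ERK, read 321.0 and 273.6 before thrombin and 2406.5 and 2083.1 after it, a log2 change of 2.85 ± 0.31 (SE, limma adjusted p = 0.000123). It rose with TRAP by 1.92 and with TRAP after PTX by 1.29 (adjusted p = 0.00342 and 0.0437).

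Among 20 windows of the other immediate-early genes, CArG boxes were found in those of Klf6 and Zfp36. These 20 genes include Btg2 and Egr4, which were not tested for a change. Of the 20, 9 rose with thrombin, Klf6 and Zfp36 among them and 7 with no CArG box in the window. Klf6 and Zfp36 rose more with thrombin than with TRAP (log2 differences of 1.65 and 0.74, adjusted p = 0.00328 and 0.0275). Klf6 overlapped after both stimuli, at 932.2 and 1005.3 against 885.3 and 1070.4. Its basal signals were 245.4 and 296.9 before thrombin and 930.3 and 843.3 before TRAP. The same limma difference was -0.39 for Egr1 (adjusted p = 0.374), 1.40 for Egr2 (adjusted p = 0.0535) and 0.93 for Dusp5 (adjusted p = 0.508). Whether CArG boxes go with such differences was not tested.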
